A study of Mus musculus with 16 samples.

Results

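Trbv31, listed as TCRBV31-01 and known in the older nomenclature as Vβ14, is 1 of the 35 V genes with a rearrangement in the T cell receptor β chain (TCRβ) repertoires of 16 mouse tumors. Every rearrangement whose V gene was called TCRBV31-01 was taken, with no other criterion, which gave 5995 of 198953 unique rearrangements. By reading frame, 3647 were in frame with no stop codon (productive), 2306 were out of frame and 42 held a stop codon. Trbv31 was present in all 16 samples, with 109 to 648 rearrangements in each.

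The T cells came from tumors grown under the skin of female C57BL/6 mice from KPC.Luc, a mouse pancreatic cancer line that expresses luciferase. According to the labels they were enriched magnetically through CD90.2, a pan-T cell surface protein, while the methods of the study describe this step for another assay and do not mention it for receptor sequencing. The study asked what becomes of the clones in the tumor when receptors of vasoactive intestinal peptide are blocked and when checkpoint antibody is given or not. There were 4 groups of 4 mice. Control mice received a scrambled peptide and isotype IgG, ANT008 mice received the receptor antagonist ANT008 and isotype IgG, anti-PD-1 mice received the scrambled peptide and anti-PD-1 antibody, and combination mice received ANT008 and anti-PD-1. Peptides were given at 10 µg daily and antibodies at 200 µg every 3 days over 10 days. All groups therefore carried a tumor, a peptide and an antibody. Only TCRβ was measured, so the T cell label could not be checked against other markers.

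TCRβ genes are assembled in the thymus by joining a V, a D and a J segment, and the junction encodes the third complementarity-determining region (CDR3), the loop that mostly touches the peptide. Nucleases remove bases from the segment ends and terminal transferase inserts others. Most V genes lie upstream of the D, J and C genes in the same orientation and join by deleting the DNA between them. Trbv31 lies downstream of the last C gene in the opposite orientation, so its joining inverts the intervening DNA instead. The locus holds a D1-J1-C1 and a D2-J2-C2 cluster, and D1 can join a J of either cluster, while a join of D2 to a J1 segment would run against their order on the chromosome. In the GRCm38.p6 annotation the order was Trbv30, Trbd1, the Trbj1 genes, Trbc1, Trbd2, the Trbj2 genes, Trbc2 and Trbv31.

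The end of Trbv31 as these samples carried it is shown with the D segments, since the deletions and insertions are counted against them. The capitals mark the bases that lie in the CDR3 when nothing is deleted. Of 2275 Trbv31 rearrangements with no V deletion and a full read of this stretch, 2235 (98.2%) were identical to it.
Trbv31 end: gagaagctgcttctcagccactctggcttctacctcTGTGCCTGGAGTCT
TCRBD01-01: gggacagggggc
TCRBD02-01: gggactgggggggc
The 14 germline bases of Trbv31 in the CDR3 spell Cys-Ala-Trp-Ser and the start of the next codon. Trbv31 shared this number with Trbv20 and Trbv30 among 24 V genes, and the other 21 V genes contributed 15, 16 or 17 bases. D1 and D2 begin with the same bases and both hold a run of G before their last base, so trimmed D segments are often hard to tell apart. Of the Trbv31 rearrangements, 1003 had no resolved D gene.

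The 4 Trbv31 rearrangements with the highest share of their sample's productive templates are shown next, since they are the largest clones the gene formed in these tumors. Capitals mark the bases between the germline V and J ends, which hold what is left of D and the inserted bases.
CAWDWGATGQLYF, anti-PD-1 replicate 3: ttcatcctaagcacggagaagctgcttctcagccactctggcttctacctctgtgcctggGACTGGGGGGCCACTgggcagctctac
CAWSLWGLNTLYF, combination replicate 1: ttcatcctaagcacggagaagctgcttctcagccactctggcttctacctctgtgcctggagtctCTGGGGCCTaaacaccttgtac
ANT008 replicate 2: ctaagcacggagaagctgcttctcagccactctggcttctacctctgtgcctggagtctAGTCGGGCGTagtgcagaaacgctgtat
combination replicate 4: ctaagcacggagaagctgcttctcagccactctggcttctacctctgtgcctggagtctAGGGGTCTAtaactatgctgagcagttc
The first had lost 5 bases of the V end and with them the serine, while the other 3 kept the whole V end and went on to leucine. The CDR3 was 15 residues long in the last pair and 13 in the others.

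Trbv31 ranked near the middle of all V genes by unique productive rearrangements, but those from rank 23 (Trbv21, 0.199%) down were hardly used. The V genes of ranks 1 to 13, down to Trbv4 (4.18%), lay above Trbv31 in all 16 samples. Among unique productive rearrangements it made up 2.86% ± 0.299 (SD, n = 16 mice), rank 17 of 33 V genes, and among unique out-of-frame rearrangements 3.14% ± 0.438, rank 17 of 34. Its nearest neighbors in the productive order were Trbv15 (2.92% ± 0.180), which lay above Trbv31 in 9 of 16 samples, and Trbv14 (2.64% ± 0.344), which lay above it in 4. Trbv26 and Trbv20, next above Trbv15, exceeded Trbv31 in 10 and 8 samples. These positions therefore were not separated beyond the spread between mice. Counted in templates, the estimated number of starting molecules, Trbv31 fell further back, to 1.46% ± 0.558 of productive templates and rank 19 of 33.

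**Figure D1:**
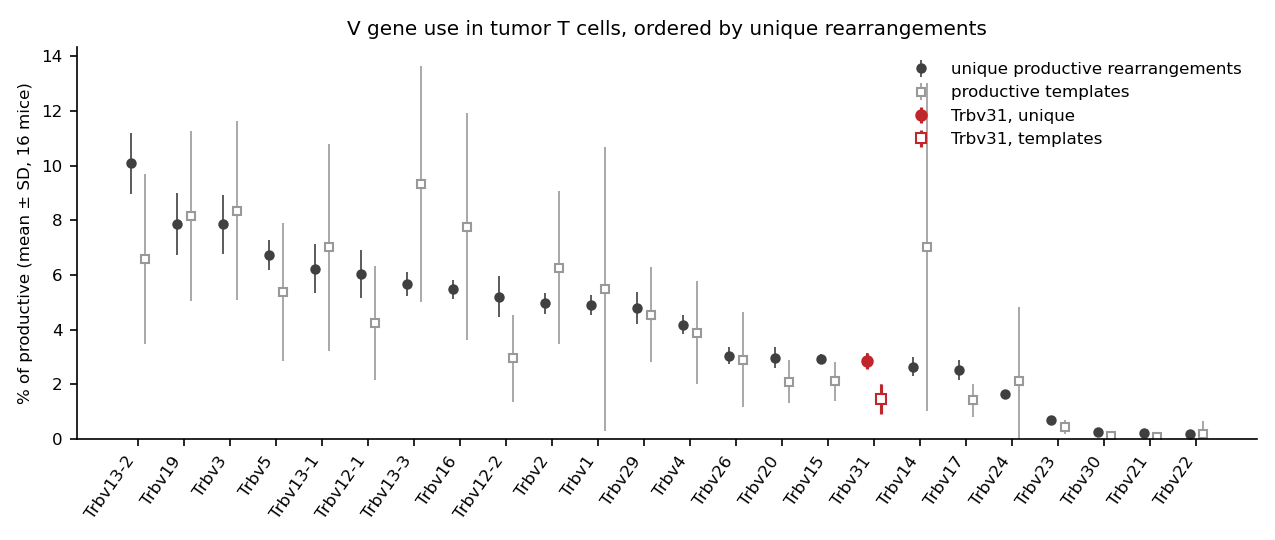
Share of each of the 24 most used V genes (x axis, ordered by unique productive rearrangements) among unique productive rearrangements (filled circles) and among productive templates (open squares), in percent, mean ± SD over 16 mice. Trbv31, in red, lies at 2.86% of unique rearrangements and at 1.46% of templates.

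Sample by sample, Trbv31 took 1.02%, 1.20%, 1.38% and 0.499% of productive templates in control replicates 1 to 4. In ANT008 mice the shares were 1.46%, 1.97%, 0.919% and 1.18%. In anti-PD-1 mice they were 2.18%, 1.08%, 1.85% and 1.42%, and in combination mice 2.55%, 1.59%, 0.922% and 2.19%. The lowest value was a control and the highest a combination sample, but each treated group held a sample below the highest control, and all groups overlapped. These shares rested on 102 to 1346 Trbv31 productive templates per sample, of 7180 to 72588 in all, and 95% Wilson intervals of single samples ran from 0.432% to 0.576% in control replicate 4 and from 2.39% to 2.73% in combination replicate 1. Such intervals cover counting error only. More cells with Trbv31 and more templates per cell cannot be told apart in these bulk samples.

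The edgeR quasi-likelihood test over 33 V genes, with Benjamini-Hochberg adjustment, did not separate Trbv31 from control in any treated group. The 3 contrasts share the control samples. The log2 fold change of the productive template share was 0.44 for ANT008 (SE 0.47, adjusted p = 0.841), 0.67 for anti-PD-1 (SE 0.47, adjusted p = 0.526) and 0.82 for the combination (SE 0.47, adjusted p = 0.360). The interaction of both agents was -0.29 (SE 0.67, adjusted p = 0.923). As background, the test called 3.03% of V genes with ANT008 (Trbv24), 0.0% with anti-PD-1, 3.03% with the combination (Trbv14) and 3.03% for the interaction (Trbv24), while DESeq2 called 0 V genes in each of them. For anti-PD-1, 4 V genes had an unadjusted p under 0.05. With rearrangements above 0.5% of productive templates left out of every V gene, the differences were smaller, at 0.18 for ANT008, 0.26 for anti-PD-1, 0.33 for the combination and -0.11 for the interaction. Without control replicate 4, which had the lowest share, they were 0.21, 0.45, 0.60 and -0.0590. Counted in unique rearrangements instead, the 3 differences were -0.20, 0.0280 and -0.0319, so 2 of them turned and all 3 adjusted p-values were 0.406 or higher.

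Non-productive rearrangements, which encode no receptor and sit in cells carrying a productive one on the other allele, were tested the same way. Trbv31 made up 1.69% ± 0.432 of non-productive templates in control mice (SD, n = 4), 2.75% ± 0.924 under ANT008, 2.20% ± 0.810 under anti-PD-1 and 2.27% ± 0.609 in combination mice. The edgeR log2 fold changes over 35 V genes were 0.70 (SE 0.44, adjusted p = 0.341), 0.38 (SE 0.43, adjusted p = 0.698) and 0.42 (SE 0.43, adjusted p = 0.556), against 2.86%, 0.0% and 11.4% of V genes called. The interaction was -0.67 (SE 0.61, adjusted p = 0.540), with 0.0% called. In the contrasts with 0 edgeR calls, anti-PD-1 and the interaction, 10 and 4 V genes had an unadjusted p under 0.05. DESeq2 called 0 V genes in each of these contrasts, those with edgeR calls included. The highest of the 16 values, 3.98% in ANT008 replicate 1, rested on 1 out-of-frame rearrangement with 283 of that sample's 427 out-of-frame Trbv31 templates (66.3%). In the other 15 samples the largest out-of-frame Trbv31 rearrangement held 4.41% to 24.7% of them.

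**Figure D2:**
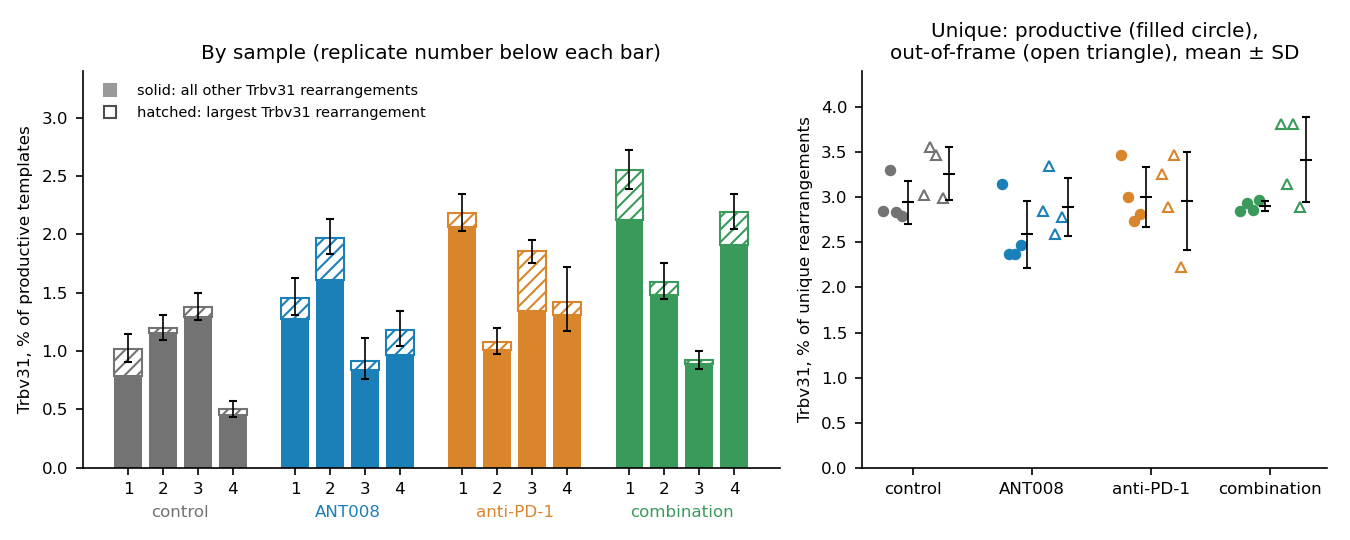
Left, Trbv31 share of productive templates in percent for each of the 16 samples, with the largest Trbv31 rearrangement hatched and 95% Wilson intervals, from 0.499% in control replicate 4 to 2.55% in combination replicate 1. Right, Trbv31 share of unique productive (filled circles) and unique out-of-frame (open triangles) rearrangements in percent, with the mean ± SD of each group of 4, where all groups overlap.

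In unique productive rearrangements the shares were 2.84%, 3.30%, 2.84% and 2.80% in control mice. With ANT008 they were 3.15%, 2.37%, 2.37% and 2.47%, so that 3 of 4 samples lay below every control and ANT008 replicate 1 did not. With anti-PD-1 they were 3.47%, 3.00%, 2.74% and 2.81%, and with the combination 2.85%, 2.94%, 2.86% and 2.97%. In an exact permutation version of Dunnett's test (two-sided, 10510500 assignments of the 16 samples), ANT008 differed from control by -0.358 percentage points (SE 0.196, exact p = 0.216). Without ANT008 replicate 1 the difference was -0.543 points (exact permutation p = 0.0151, not adjusted). Among all comparisons with control that left out 1 mouse, 4 newly passed the unadjusted threshold, while 452 kept their sign and side. Counted in templates with all samples, the ANT008 difference was 0.360 points. In unique rearrangements of all samples, anti-PD-1 differed by 0.0591 points (exact permutation p = 0.979) and the combination by -0.0428 points (exact permutation p = 0.991). Over 24 such comparisons of 8 Trbv31 measures with control, no exact p was lower than 0.216, and every value adjusted over the 24 came to 1.00.

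The composition of productive Trbv31 rearrangements and their in-frame share overlapped between groups in these measures. The in-frame share was 60.4% ± 2.10 in control mice (SD, n = 4), 59.3% ± 2.98 under ANT008, 63.2% ± 2.50 under anti-PD-1 and 61.2% ± 3.05 in combination mice. The J2 cluster share of productive rearrangements was 66.0% ± 4.56, 64.4% ± 3.25, 67.1% ± 4.39 and 64.4% ± 3.88 in the same order. Inserted nucleotides averaged 4.05 ± 0.626, 3.77 ± 0.101, 3.75 ± 0.206 and 3.67 ± 0.0647, and V deletions 1.71 ± 0.0959, 1.82 ± 0.340, 1.77 ± 0.111 and 1.72 ± 0.147. The exact permutation p-values of these 12 differences lay between 0.304 and 1.00.

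Another 14 measures, most of them of out-of-frame rearrangements, were compared with control in the same way after the data were seen (42 comparisons). Trbv31 lost 1.69, 1.93, 1.77 and 1.97 V bases out of frame in control mice and 2.20, 2.06, 2.39 and 2.29 in ANT008 mice, so that every ANT008 sample lay above every control. Of 21 V genes, 4.76% had ANT008 samples that did not overlap with control in this measure, which was Trbv31 alone. The difference was 0.392 bases (SE 0.152, exact permutation p = 0.0584, and 1.00 when adjusted over all 66 comparisons). It was 0.172 bases when templates were counted and 0.193 without single-template rearrangements, which left as few as 6 rearrangements in a sample. Anti-PD-1 samples ran from 1.20 to 1.99 and combination samples from 1.73 to 2.13, both overlapping with control.

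The share of productive Trbv31 rearrangements with a single template was also lower with ANT008. It was 78.2%, 77.3%, 78.7% and 75.4% in control mice and 69.3%, 69.0%, 69.2% and 74.5% in ANT008 mice, which did not overlap (difference -6.88 points, SE 2.12, exact permutation p = 0.0205, and 1.00 when adjusted over the 66). Such a separation was seen in 9.52% of 21 V genes, Trbv31 and Trbv24. The other V genes together had 74.8% ± 3.01 in control and 69.6% ± 5.41 in ANT008 mice (SD, n = 4). Without ANT008 replicate 2 the exact permutation p was 0.0528, and without ANT008 replicate 3 it was 0.0508. In the remaining 40 comparisons no exact p was lower than 0.137.

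The 16 mice of all groups were then used as 16 repeats of another comparison, Trbv31 against all other V genes within the same sample. Unique rearrangements were counted, so that expanded clones carried no extra weight, and the within-sample difference was tested by an exact sign-flip permutation over the 65536 sign patterns of 16 samples (two-sided), where 3.05e-05 is the smallest p possible. The p-values were adjusted over 399 tests of up to 23 V genes and 19 measures. V genes differ from each other in most of these measures, so a call by itself does not set Trbv31 apart. The share of V genes called is given beside each measure. The rank of Trbv31, from high to low, is given where it was called.

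Trbv31 joined to a J2 segment less often carried D1. Among out-of-frame J2 joins with a resolved D gene, D1 made up 15.4%, 21.4%, 30.3% and 15.4% of Trbv31 rearrangements in control replicates 1 to 4, where the other V genes had 34.6%, 35.8%, 37.9% and 33.6%. In ANT008 mice the Trbv31 shares were 26.8%, 22.8%, 20.8% and 25.0%, in anti-PD-1 mice 23.3%, 17.9%, 33.6% and 15.8%, and in combination mice 27.5%, 25.0%, 25.0% and 26.7%. Trbv31 was lower than the other V genes of the same sample in all 16 mice. The means were 23.3% ± 5.33 against 36.2% ± 2.74 (SD, n = 16), a difference of -12.9 points (SE 0.941, exact permutation p = 3.05e-05, adjusted p = 0.000128). Counted in templates it was -9.83 points and no longer passed the threshold (adjusted p = 0.0727 by the same exact permutation test). Of 20 V genes tested, 60.0% were called in either direction and Trbv31 was the lowest, next to Trbv13-2 at 26.5%, while Trbv29 was the highest at 59.5%.

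The same held in productive joins, where D1 made up 27.6% ± 3.89 of the resolved D genes in Trbv31-J2 rearrangements and 36.1% ± 1.76 in those of other V genes, lower in 16 of 16 mice (difference -8.50 points, SE 1.24, exact permutation p = 3.05e-05, adjusted p = 0.000128). Here 75.0% of V genes were called and Trbv31 was rank 18 of 20, above Trbv12-1 (27.1%) and Trbv4 (25.5%). The measured D1 shares depended on how much of D had to be matched. With at least 8 matched D bases, a requirement added after the data were seen, they were 12.5% ± 5.54 against 22.7% ± 2.01 out of frame and 13.8% ± 4.45 against 21.9% ± 1.39 in productive joins, again lower in 16 of 16 mice. In joins to J1, D2 was called in 12.05% ± 5.07 of resolved out-of-frame Trbv31 rearrangements and 11.1% ± 1.97 of the others. No D gene was resolved in 13.9% of out-of-frame Trbv31-J2 rearrangements and in 14.9% of those of other V genes.

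**Figure D3:**
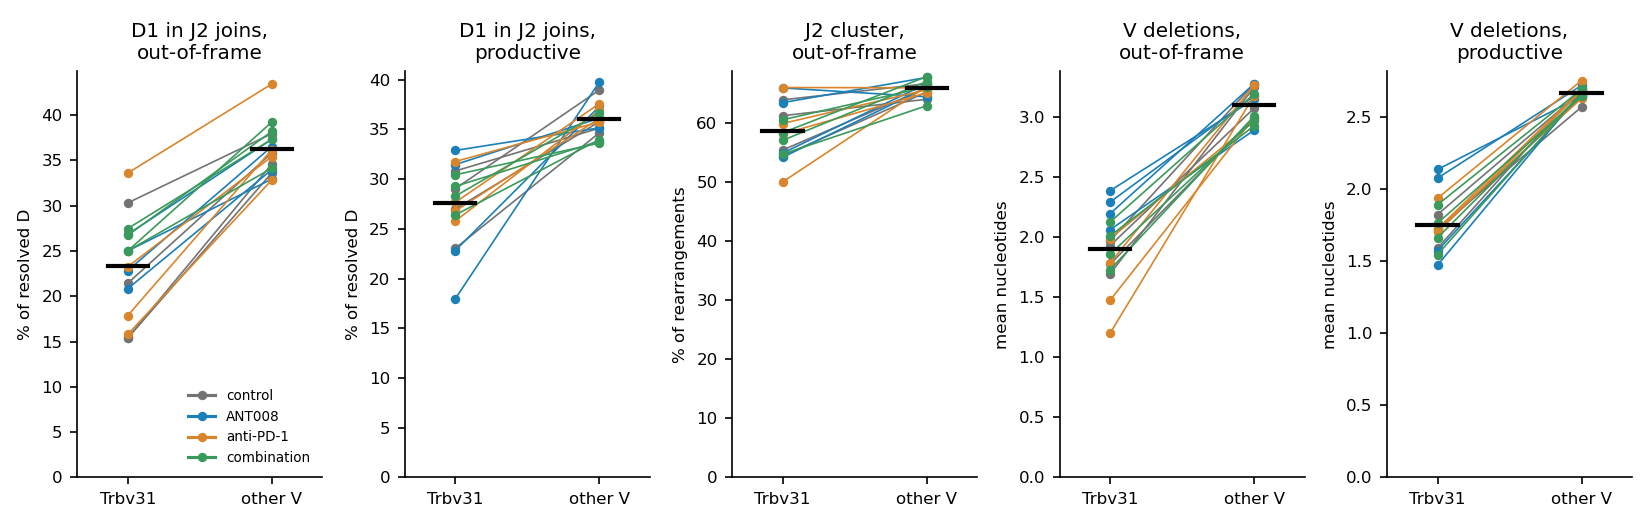
Trbv31 (left of each panel) and all other V genes of the same sample (right), 1 line per mouse colored by group, for the D1 share of resolved D genes in J2 joins, the J2 cluster share and the mean number of bases deleted from V. Black bars are means over 16 mice, and for D1 and the V deletions every line rises from Trbv31 to the other V genes.

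Trbv31 also used the J2 cluster less in out-of-frame rearrangements. The J2 share was 58.6% ± 4.65 for Trbv31 and 65.8% ± 1.30 for the other V genes (SD, n = 16), a difference of -7.20 points (SE 1.19, exact permutation p = 0.000122, adjusted p = 0.000378). Counted in templates the call was lost (-5.69 points, adjusted p = 0.232 by the same exact permutation test). It was lower in 14 of 16 mice, the exceptions being ANT008 replicate 3 (65.9% against 64.4%) and anti-PD-1 replicate 2 (66.0% against 65.9%). Of 21 V genes, 81.0% were called and Trbv31 was rank 18, above Trbv2, Trbv29 and Trbv1. In productive rearrangements the shares were 65.5% ± 3.81 and 67.5% ± 0.842 (difference -2.01 points, exact permutation p = 0.0709, adjusted p = 0.108, with 71.4% of V genes called), which did not pass the threshold.

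Within the J2 cluster, Trbj2-7 was the most used J gene of Trbv31, with 17.8% ± 3.00 of productive rearrangements against 21.2% ± 0.874 for other V genes, and 16.2% ± 4.08 against 20.6% ± 1.30 out of frame. It was lower for Trbv31 in 14 of 16 mice in both. Trbj1-4 stood on the other side, with 10.2% ± 2.95 against 6.73% ± 0.485 of out-of-frame rearrangements, higher for Trbv31 in 15 of 16 mice, and 8.55% ± 2.57 against 7.15% ± 0.481 of productive ones, higher in 12. These J genes were picked out after their values were seen, and single J genes were not tested. Trbj2-6, a pseudogene in the annotation, and Trbj1-7 were not seen with Trbv31, which allows a share of up to 0.1301% of its out-of-frame rearrangements (3 counts). They made up 0.0478% and 0.0536% of the out-of-frame rearrangements of other V genes.

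The V end of Trbv31 was trimmed little. In productive rearrangements it lost 1.59, 1.71, 1.73 and 1.82 nucleotides on average in control mice, 1.47, 1.57, 2.08 and 2.14 under ANT008, 1.72, 1.94, 1.73 and 1.70 under anti-PD-1 and 1.66, 1.89, 1.55 and 1.76 in combination mice. The other V genes lost 2.57 to 2.75 in every one of these samples, so the ranges did not meet. The mean was 1.75 ± 0.184 against 2.67 ± 0.0421 nucleotides (SD, n = 16), a difference of -0.916 (SE 0.0447, exact permutation p = 3.05e-05, adjusted p = 0.000128). Out of frame it was 1.90 ± 0.3003 against 3.10 ± 0.135, a difference of -1.19 (SE 0.0799, exact permutation p = 3.05e-05, adjusted p = 0.000128), lower in 16 of 16 mice. Of 21 V genes, 90.5% were called in productive and 81.0% in out-of-frame rearrangements, with Trbv31 at rank 19 and rank 20. Trbv2 was trimmed less in both, and Trbv12-2 in productive rearrangements.

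The deletions of Trbv31 followed an uneven pattern. In productive rearrangements 38.5% ± 4.01 had lost no V base and 19.2% ± 3.44 had lost 1, against 22.8% ± 0.830 and 13.2% ± 0.495 for other V genes. A loss of 2 bases was rarer, at 6.95% ± 2.32, and a loss of 3 was frequent again, at 19.4% ± 2.53. The other V genes as one set showed no such dip, with 14.9% ± 0.716 at 2 bases and 13.03% ± 0.577 at 3. This set pools V genes with different ends, which can even out the pattern of each, and single V genes were not compared. A loss of 3 bases ends the V stretch at tgtgcctggag, 2 bases into the serine codon.

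**Figure D4:**
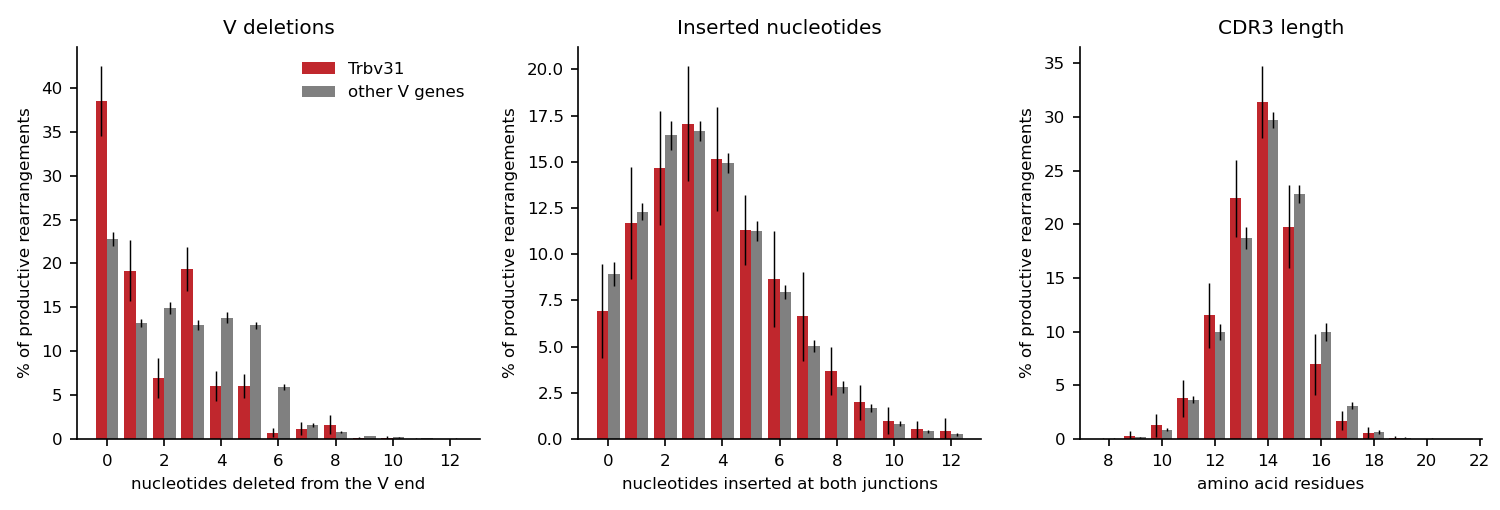
Distribution of V deletions, of inserted nucleotides and of CDR3 length in residues for productive rearrangements of Trbv31 (red) and of other V genes (gray), in percent, mean ± SD over 16 mice. Trbv31 peaks at 0 and 3 deleted bases, with 38.5% and 19.4% of its rearrangements.

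Insertions and CDR3 length differed less. Productive Trbv31 rearrangements held 3.81 ± 0.334 inserted nucleotides and those of other V genes 3.55 ± 0.0693, a difference of 0.259 (SE 0.0747, exact permutation p = 6.1e-05, adjusted p = 0.000219, with 71.4% of V genes called). Trbv31 was rank 5 of 21 V genes and higher than the others in 15 of 16 mice, and control replicate 1 was the highest at 4.95. Out of frame the difference was 0.115 (exact permutation p = 0.329, adjusted p = 0.408, with 61.9% of V genes called). The CDR3 was 41.3 ± 0.560 against 42.0 ± 0.190 nucleotides in productive rearrangements, a difference of -0.702 (SE 0.151, exact permutation p = 0.000732, adjusted p = 0.00184), and 41.6 ± 0.558 against 42.4 ± 0.128 out of frame (difference -0.805, adjusted p = 0.00114 by the same exact permutation test), with 85.7% of V genes called in each. Trbv31 was rank 16 of 21 V genes in productive CDR3 length and rank 17 out of frame. The productive CDR3 difference was lost when single-template rearrangements were left out (-0.194, adjusted p = 0.336) and when templates were counted (0.0288, adjusted p = 0.948). D and J deletions did not pass the threshold in either class, with adjusted p-values from 0.0930 to 0.766 and 23.8% to 42.9% of V genes called.

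The in-frame share of all Trbv31 rearrangements was 61.0% ± 2.83 against 62.8% ± 2.10 for the other V genes, a difference of -1.76 points (SE 0.954, exact permutation p = 0.0857, adjusted p = 0.127, with 69.6% of V genes called), and lower in 11 of 16 mice. Counted in templates the gap was -10.1 points (adjusted p = 0.000874).

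Trbv30 and Trbv1 served as V genes that join by deletion, Trbv30 being the last V gene upstream of the D genes and Trbv1 the first of the locus. Trbv31 was used in 2.86% ± 0.299 of unique productive rearrangements, Trbv30 in 0.244% ± 0.0767 and Trbv1 in 4.90% ± 0.361 (adjusted exact permutation p = 6.1e-05 for both differences over 6 comparisons), and the order was the same in all 16 mice. The V end of Trbv31 was trimmed less than that of Trbv30 (1.75 against 2.95 nucleotides, adjusted p = 6.1e-05) and of Trbv1 (1.75 against 1.99, adjusted p = 0.00183), lower in 16 and in 14 mice by the exact permutation test. The J2 share of productive Trbv31 rearrangements was 65.5%, below the 76.6% ± 17.7 of Trbv30 (adjusted p = 0.0270) and above the 62.8% ± 2.53 of Trbv1 (adjusted p = 0.0372). The Trbv30 shares rested on 312 rearrangements in all. Both J2 differences lost the threshold without some single samples, when templates were counted and without single-template rearrangements. The V deletion difference from Trbv1 was lost when templates were counted (-0.0544, adjusted exact permutation p = 0.740) and without single-template rearrangements (-0.0928, adjusted p = 0.405), and that from Trbv30 without single-template rearrangements (-1.81, adjusted p = 0.127). In the D1 share of out-of-frame J2 joins, Trbv1, at 35.4% ± 7.65, held rank 10 of 20 where Trbv31 held rank 20.

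**Figure D5:**
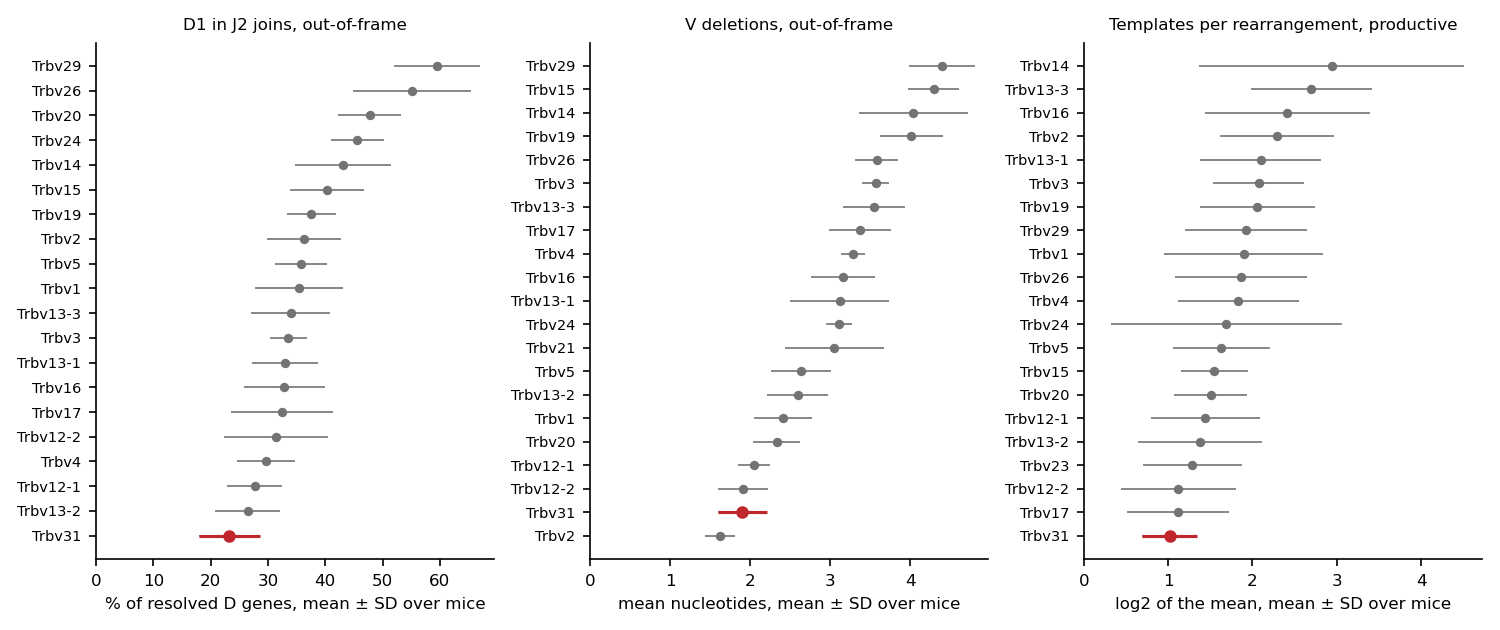
V genes with enough rearrangements in every sample (rows), ordered by the D1 share of resolved D genes in out-of-frame J2 joins, by mean V deletions out of frame, and by the log2 of the mean templates per productive rearrangement, mean ± SD over 16 mice. Trbv31, in red, is the lowest in the first and the last panel and rank 20 of 21 in V deletions.

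Trbv31 clones were small. A productive Trbv31 rearrangement held 1.44 to 3.52 templates on average, depending on the sample, against 2.53 to 9.38 for the other V genes, and it was lower in 16 of 16 mice. On the log2 scale the means were 1.02 ± 0.328 and 2.11 ± 0.499, a difference of -1.09 (SE 0.150, exact permutation p = 3.05e-05, adjusted p = 0.000128). Of 21 V genes 52.4% were called and Trbv31 was the lowest, next to Trbv17 (1.12) and Trbv12-2 (1.12). The measure was added after the data were seen. With the most frequent rearrangement of every V gene and sample left out, the difference was -0.67 (adjusted p = 0.000125). The median rearrangement held 1 template in every sample for Trbv31 and for the others, and the single-template share did not separate them (74.8% ± 3.87 against 73.5% ± 5.08, exact permutation p = 0.402, adjusted p = 0.485, with 38.1% of V genes called in productive and 47.6% in out-of-frame rearrangements). Out of frame the log2 difference was -0.53 (exact permutation p = 0.000854, adjusted p = 0.00210, with 28.6% of V genes called), and Trbv31 was rank 20 of 21.

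Few Trbv31 clones were large. For comparison, Trbv31 made up 2.86% of all unique productive rearrangements (mean of 16 mice). Of 1528 productive rearrangements above 0.1% of their sample's productive templates, 18 were of Trbv31 (1.18%), found in 10 of 16 samples. Of 328 above 0.5%, 1 was, and of 163 above 1%, 0 were, which allows a share of up to 1.84%. That 1 was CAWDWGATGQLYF in anti-PD-1 replicate 3, with 373 templates, 0.514% of productive templates (95% Wilson interval 0.464% to 0.569%) and 27.7% of the Trbv31 templates of its sample, where it was the clone of rank 30 among all V genes. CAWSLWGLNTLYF followed in combination replicate 1 with 141 templates (0.422%, rank 17), then the clone shown above of ANT008 replicate 2 with 120 (0.364%, rank 19) and that of combination replicate 4 with 101 (0.279%, rank 31). At the other end, the leading Trbv31 rearrangement took 0.0324% of combination replicate 3, at rank 202, and in control replicate 4 it was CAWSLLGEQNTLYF, at 0.0456%. The largest clone of any V gene, in comparison, took 5.51% to 18.2% of a sample.

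The 16 leading rearrangements had 16 different CDR3s, and none of them was found at the nucleotide level in another sample. This was the rule for the gene, since 46 of its 3588 productive nucleotide sequences were found in 2 or more samples. Of the 16 leading rearrangements, 14 used a J2 segment and 10 kept the whole V end. The same 10 began with CAWSL, since a whole V end fixes leucine as the next residue, so these 2 counts are not separate traits. Over all productive Trbv31 rearrangements the shares with J2, a whole V end and CAWSL were 65.5%, 38.5% and 39.7%, and the differences were not tested. In ANT008 replicate 3 and anti-PD-1 replicate 4, 2 rearrangements tied for the lead, with 9 and 8 templates, and 1 of them was taken. By treatment, the largest clone made up 10.6% ± 8.33 of the Trbv31 productive templates in control mice, 14.5% ± 4.96 under ANT008, 11.9% ± 10.6 under anti-PD-1 and 9.99% ± 5.79 in combination mice (SD, n = 4). The differences from control, 3.94, 1.28 and -0.577 points, had exact permutation p-values of 0.817, 0.990 and 0.999.

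The CDR3 of Trbv31 was nearly fixed at its start. It began with Cys-Ala-Trp in 95.6% ± 1.56 of productive rearrangements, against 0.00339% ± 0.00559 for other V genes, with CAWS in 75.6% ± 3.22 and with CAWSL in 39.7% ± 4.28. At position 4, serine (75.8% ± 3.17) was followed by arginine (9.45% ± 1.82) and threonine (3.97% ± 1.61), as shares of all productive Trbv31 rearrangements. At position 5, leucine (41.5% ± 4.12) was followed by proline (16.2% ± 2.13) and arginine (10.6% ± 2.59), and at position 6 glycine (30.1% ± 4.06), which D segments can encode, led. The CDR3 was 14 residues long at the median, the commonest length with 31.4% ± 3.35, and ran from 6 to 24.

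Trbv31 CDR3s were mostly private. Of 3323 different productive CDR3 amino acid sequences, 3172 were seen in 1 sample and 151 (4.54%) in more, whereas 7.18% of the CDR3s of other V genes recurred. Per sample, 11.3% ± 2.83 of the productive Trbv31 rearrangements had a CDR3 found in another sample, against 19.0% ± 2.52 for other V genes, and Trbv31 was lower in 16 of 16 mice. This is a description with no test, since samples share their partners. Of the CDR3s of other V genes as one set, 0.854% were found in at least 4 samples and 0.107% in at least 8. Single V genes were not compared. Of the Trbv31 CDR3s, 15 (0.451%) were found in at least 4 samples, and 1 (0.0301%) in at least 8.

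That 1 was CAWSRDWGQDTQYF, found in 9 samples with 16 templates in all, made by 7 different nucleotide rearrangements that all used Trbj2-5. It reached 0.0139% of productive templates at most, and was found in 2 control, 0 ANT008, 3 anti-PD-1 and 4 combination mice. In the same order, these groups held 201, 144, 243 and 324 productive Trbv31 rearrangements per mouse on average. Whether this depth set where the CDR3 was found was not tested. Its commonest rearrangement, found in 4 samples with 9 templates, lost 3 V bases and is shown with the bases between V and J in capitals, since most of them can be read from D2.
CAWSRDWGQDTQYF: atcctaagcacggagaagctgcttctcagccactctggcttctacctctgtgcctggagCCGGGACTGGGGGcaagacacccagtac
It held 2 inserted bases. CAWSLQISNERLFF was found in 7 samples with 36 templates, and its commonest rearrangement kept the whole V end with 5 bases between V and J. A CDR3 of 16 residues with Trbj2-4 was found in 6 samples with 132 templates and was the leading Trbv31 clone of control replicate 3, although with other bases than in the remaining samples. The commonest rearrangement of this CDR3, with 6 inserted bases, was found in 5 samples with 89 templates. A CDR3 of 15 residues with Trbj2-1 and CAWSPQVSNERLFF were found in 6 samples each, with 47 and 28 templates. The mean number of inserted bases was 1.38 to 2.38 in 4 of these 5 CDR3s and 6.13 in the one with Trbj2-4. None of the 5 exceeded 0.160% of productive templates in any sample.

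The V genes whose share of productive templates moved most like that of Trbv31 over the 16 samples were Trbv20, Trbv3 and Trbv15, with root mean square differences of 0.55, 0.55 and 0.57 on the mean-centered log2 scale, among 23 V genes compared. For reference, the log2 share of Trbv31 itself had an SD of 0.60 over the samples, so this likeness is weak.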

How the data were processed

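T cell receptor β rearrangements of tumor T cells from 16 mice were surveyed by the service with the immunoSEQ assay, which amplifies the CDR3 with V and J primers and corrects for unequal amplification. Labels name an RNA kit and the study's text DNA in one place, so the molecule is unsettled, and a template may be a transcript. The deposited values are template counts, whole numbers per unique 87-nucleotide rearrangement, with V, D and J calls, deletions and insertions from the service. Read columns were empty. The aligner and genome build are not given in the sources used here, so no coordinates are given, and the order of genes comes from GRCm38.p6, in which all 33 V gene names with productive templates matched. Total templates per sample ranged from 11317 to 99411 and limit the precision of small clones. V genes were unresolved in 117 rearrangements (0.0588%), which stayed out of the V gene comparisons.

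Groups follow the treatment in the labels. Template counts per V gene were tested with edgeR 4.0.16 (R 4.3.3), with 1 model for the 16 samples, offsets equal to productive or non-productive templates and calls made at an adjusted p under 0.05. DESeq2 1.42.0 was an alternative. The study's one-way comparison with Dunnett's test was made in an exact permutation form. Within-sample measures needed at least 10 rearrangements of a V gene in every sample. A D gene called unresolved was left out of D shares. Interval method: Wilson, 95%. Other tools were Python 3.11.15, numpy 2.4.6, pandas 2.3.3, scipy 1.17.1, numba 0.67.0 and matplotlib 3.10.9. Scripts were tested on simulated data. Alternatives were other weights, filters, normalizations and left-out samples.

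Replicate numbers in the titles differ from those inside the deposited tables and were used as names, and as a block only in 1 alternative fit.

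The comparisons of 14 further measures with control were added after the data were seen. Named rearrangements are the most frequent of each sample and the 5 CDR3s found in most samples, and named V genes are Trbv30, Trbv1, the neighbors in use and the 3 most alike. Trbv31, these rules and the tests were chosen with earlier results of these data known.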

Additional observations from a re-analysis of the deposited data

Results flagged for a closer look

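In 4 of 40 groups of 4 samples, over 10 Trbv31 measures, 1 sample lay far from the other 3 of its group (Dixon's 95% limit, which chance passes in about 1 in 20 groups). Control replicate 2 had a Trbv31 share of unique productive rearrangements of 3.30%, next to 2.84%. ANT008 replicate 1 had 3.15%, next to 2.47%. Mean V deletions of productive Trbv31 rearrangements were 1.94 nucleotides in anti-PD-1 replicate 2, next to 1.73. The largest Trbv31 rearrangement of anti-PD-1 replicate 3, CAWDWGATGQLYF, held 27.7% of the Trbv31 productive templates of its sample, next to 7.84%.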

How the results depend on the processing

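Against all other V genes of the same sample, the D1 deficit in productive J2 joins, the shorter V deletions and the smaller templates per productive rearrangement passed the threshold under every alternative run, and in each set of 15 mice. Differences of Trbv31 use from control kept on the same side of the threshold by edgeR under TMM factors, DESeq2, filters, left-out large clones, left-out samples and the 8 samples compared alone, but not their size or sign. With TMM factors the productive log2 values were 0.34, 0.42, 0.63 and -0.13 (ANT008, anti-PD-1, combination and interaction). Leaving out 1 mouse gave 0.21 to 0.61, 0.45 to 0.85, 0.60 to 1.04 and -0.50 to -0.0590. With unique rearrangements in place of templates the productive log2 values were -0.20 (ANT008), -0.0319 (combination) and 0.14 (interaction), and the non-productive ones -0.14 (ANT008), -0.0947 (anti-PD-1) and 0.27 (interaction). With TMM factors the non-productive anti-PD-1 value was -0.0673. In all of these the cause was not tested. The replicate block from the title numbers changed no call of Trbv31 use (productive log2 values 0.43, 0.68, 0.82 and -0.29). Mean correlations of same-numbered samples ran from -0.0754 to 0.0885, and those of single pairs from -0.371 to 0.669. Of 16 samples, 6 were closest to a sample of their own number, and whether this exceeds chance was not tested.

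Among the exact comparisons with control, these turned when templates were counted: the share of unique productive rearrangements with ANT008 (0.360 points) and the combination (0.790), the out-of-frame share with ANT008 (1.05) and anti-PD-1 (0.502), the J2 share with anti-PD-1 (-0.990), and with ANT008 the insertions (0.0285) and the CDR3 length (0.424 nucleotides). Without single-template rearrangements the combination share turned to 0.283, the out-of-frame ANT008 share to 0.111 and the anti-PD-1 J2 share to -5.57, and the CDR3 of the combination was 1.23 nucleotides shorter (-1.23, exact permutation p = 0.0150, not adjusted over 24). Out-of-frame V deletions of the combination turned to -0.0862 when templates were counted. With ANT008 they passed the unadjusted threshold in the 8 samples compared alone (0.392, exact permutation p = 0.0286, the smallest possible) and without ANT008 replicate 2, anti-PD-1 replicate 3 or anti-PD-1 replicate 4. The single-template share with ANT008 (-6.88) did not pass it with the replicate block (exact permutation p = 0.125, the smallest possible with 4 pairs). Leaving out 1 mouse moved the differences from control over these ranges: out-of-frame V deletions 0.341 to 0.449 (ANT008), single-template share -8.21 to -6.37 (ANT008) and -1.31 to 0.0156 (combination), productive share -0.543 to -0.239 (ANT008), -0.0962 to 0.178 (anti-PD-1) and -0.0923 to 0.0758 (combination), in-frame share -0.490 to 1.87 (combination), J2 share -2.83 to 0.606, -0.956 to 3.32 and -3.08 to 0.649, insertions -0.431 to 0.0152 (ANT008), V deletions -0.00484 to 0.216 (ANT008) and -0.0546 to 0.0606 (combination), CDR3 length -0.291 to 0.304 (ANT008), and largest clone -4.001 to 5.31 (anti-PD-1) and -2.82 to 3.45 (combination).

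Within samples, counting templates gave an in-frame gap of -10.1 points (adjusted p = 0.000874), a J2 gap out of frame of -5.69 (adjusted p = 0.232), a D1 gap out of frame of -9.83 (adjusted p = 0.0727), D and J deletions out of frame of -0.160 and 0.253, and CDR3 gaps of 0.0288 (productive) and -0.743 (out of frame, adjusted p = 0.134). Without single-template rearrangements the J deletions gap was -0.258 (adjusted p = 0.0224) and the productive CDR3 gap -0.194. Against the median of single V genes the in-frame gap was -3.60 (adjusted p = 0.00411) and the out-of-frame log2 templates gap -0.23 (adjusted p = 0.113). Leaving out 1 mouse gave an in-frame gap of -2.31 to -1.33 (past the threshold without anti-PD-1 replicate 4, adjusted p = 0.0279), a productive J2 gap of -2.58 to -1.53 (past it without control replicate 1 or anti-PD-1 replicate 4), J deletions of -0.125 to -0.0805 (past it without control replicate 4 or anti-PD-1 replicate 4), D deletions of -0.0463 to 0.00302 and an out-of-frame single-template gap of -0.217 to 1.22. Within samples, out-of-frame measures were not run without single-template rearrangements, since as few as 6 were left in a sample. The out-of-frame comparisons with control that left them out rested on these few.

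Against Trbv30, counting templates put the J2 gap at -6.79, and leaving out single-template rearrangements put it at -14.7 and the V deletions gap at -1.81. Against Trbv1 the J2 gap was 4.80 and 3.27 and the V deletions gap -0.0544 and -0.0928 under these alternatives. None of these 7 values passed the threshold. Leaving out 1 mouse gave J2 gaps of -13.9 to -9.45 against Trbv30 (lost without ANT008 replicate 1) and 2.16 to 3.53 against Trbv1 (lost without control replicate 1, ANT008 replicates 1, 2 or 3, anti-PD-1 replicate 4, or combination replicates 3 or 4). Depth limits what can be said of clones with few templates, since 74.8% of productive Trbv31 rearrangements had 1.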
